A study of Mus musculus with 74 samples.

Results

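The binding sites described here are the 1812 ChIP-seq peaks deposited for Zfp457, a mouse KRAB zinc finger protein (KRAB-ZFP), out of 53255 peaks in the table of the whole study. They were taken as every peak listed under the name Zfp457, with no selection on a measured value. The study mapped the binding of epitope-tagged KRAB-ZFPs by immunoprecipitating crosslinked chromatin with an antibody against the tag and sequencing the DNA that came with it. Zfp457 was overexpressed with a C-3XHA tag, an HA epitope repeated at the C-terminus, in F9 EC cells, a mouse embryonal carcinoma line, and precipitated with the antibody HA (ab9110). Per the study's methods, puromycin-resistant clones were pooled before ChIP, so the cells were not a single clone and carried the tagged protein beside any endogenous one.

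Zfp457 was compared with the other 29 F9 samples of an HA-tagged KRAB-ZFP called against the same pair of controls, F9 input and an HA control ChIP; these held 10871 peaks. Of these 30 samples 23 carried the tag at the C-terminus and 7 at the N-terminus. Each protein was assayed in 1 sample, which leaves the values without an error between replicates. Zfp457 was called at a p threshold of 1e-5 and a fold enrichment threshold of 10, the loosest of the settings used in F9 cells, which the methods describe for samples with too few peaks at stricter ones. Of the other 29 samples 6 had the same thresholds, namely Gm13235, Zfp458, Zfp600, Zfp709, Zfp933 and Zkscan17, and the rest had a stricter p threshold of 1e-10.

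KRAB-ZFPs carry an array of C2H2 zinc fingers that reads DNA and a KRAB domain that recruits the corepressor KAP1, also called TRIM28. KAP1 in turn brings the histone methyltransferase SETDB1, which deposits H3K9me3, a mark of silent chromatin. Many members of the family bind transposable elements, which are present in many near-identical copies. The gene Zfp457 itself lies on the minus strand of chr13:67393386-67407348 in mm9, within a cluster of zinc finger genes.

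The sequences of 5 of the strongest peaks are shown first because the comparisons of sequence below turn on composition. Each line gives the 200 bp around a summit on the plus strand of mm9. All 5 are among the 10 peaks with the highest score, but they are not the top 5. They include all 4 of the 10 that held a CA tract or an alternating run, as defined below. The other 6 of the 10 held neither, so the lines shown are not typical of the 10. Capitals mark runs of at least 14 bases in which purines (A or G) and pyrimidines (C or T) alternate without a break.
intergenic, highest score, chr13:74667434-74667633: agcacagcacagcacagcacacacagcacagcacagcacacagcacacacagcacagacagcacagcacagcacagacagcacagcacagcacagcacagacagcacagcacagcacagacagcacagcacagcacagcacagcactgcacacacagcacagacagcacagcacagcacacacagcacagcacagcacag
intergenic, second score, chr6:136951445-136951644: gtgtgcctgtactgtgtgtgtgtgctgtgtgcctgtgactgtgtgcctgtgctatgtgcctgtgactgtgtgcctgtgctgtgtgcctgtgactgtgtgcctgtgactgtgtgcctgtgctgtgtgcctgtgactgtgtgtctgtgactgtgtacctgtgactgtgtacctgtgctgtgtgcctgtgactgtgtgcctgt
Atl2 intron, chr17:80277646-80277845: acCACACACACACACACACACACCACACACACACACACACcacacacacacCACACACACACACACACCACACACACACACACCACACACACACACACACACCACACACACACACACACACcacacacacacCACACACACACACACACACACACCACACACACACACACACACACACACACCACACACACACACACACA
Pde4d intron, chr13:109272317-109272516: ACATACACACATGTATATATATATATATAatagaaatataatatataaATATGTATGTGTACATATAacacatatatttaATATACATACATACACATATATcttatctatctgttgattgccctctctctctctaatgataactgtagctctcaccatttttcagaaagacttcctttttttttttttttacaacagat
Inpp4b intron, chr8:84329633-84329832: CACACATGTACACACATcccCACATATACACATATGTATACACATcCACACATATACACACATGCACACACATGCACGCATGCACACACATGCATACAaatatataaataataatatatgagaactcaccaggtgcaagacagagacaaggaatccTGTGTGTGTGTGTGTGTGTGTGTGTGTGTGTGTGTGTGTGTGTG

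The peak with the highest score consisted almost wholly of short units of A, G and C in tandem and held no alternating run of that length, its longest being 10 bases. The peak in the Atl2 intron was made of CA repeats. The one in the Inpp4b intron held mixed CA, CATG and TG repeats on either side of other sequence, with a longest run of 52 bases. The Pde4d intron peak held a run of 29 bases.

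Other peaks that the description below turns on had no such run. The following lines show a peak with the highest fold enrichment, a high-scoring peak in unique sequence, and 2 of those called in the most samples.
intergenic, highest fold, chr6:35286659-35286858: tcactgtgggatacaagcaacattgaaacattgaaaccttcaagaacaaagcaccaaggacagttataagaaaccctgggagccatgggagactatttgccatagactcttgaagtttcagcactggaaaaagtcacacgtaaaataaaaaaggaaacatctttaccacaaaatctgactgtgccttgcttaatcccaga
intergenic near A4galt, chr15:83090774-83090973: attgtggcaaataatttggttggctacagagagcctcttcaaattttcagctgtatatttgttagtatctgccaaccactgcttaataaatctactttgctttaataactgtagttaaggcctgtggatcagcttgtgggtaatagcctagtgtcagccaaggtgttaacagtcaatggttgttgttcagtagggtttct
Lrrc8d intron, chr5:106181662-106181861: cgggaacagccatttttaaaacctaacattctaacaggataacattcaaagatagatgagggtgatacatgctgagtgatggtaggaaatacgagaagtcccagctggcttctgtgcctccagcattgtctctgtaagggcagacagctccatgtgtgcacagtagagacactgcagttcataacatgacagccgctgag
Slit1 intron, chr19:41707771-41707970: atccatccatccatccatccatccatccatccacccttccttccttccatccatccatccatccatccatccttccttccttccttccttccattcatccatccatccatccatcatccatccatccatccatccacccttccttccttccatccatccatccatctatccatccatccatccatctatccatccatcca

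The chr6 peak and those near A4galt and in Lrrc8d showed no tandem repeat over their 200 bp. The peak at chr14:94687748-94687947, which had the same highest fold as the chr6 peak, is not shown and was made mostly of A and G. The Slit1 peak was a tandem repeat of mixed ATCC and TTCC units.

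The Zfp457 peaks were many and weakly enriched. With 1812 peaks Zfp457 had the most of the 30 samples, ahead of Gm13235 with 1791, while the others ranged down to 67 in Rex2 with a median of 176. Its median fold enrichment over the local background was 11.87, the lowest of the 30, against 11.93 in Zfp709 and up to 55.4 in AW146154. By an exact two-sided permutation test over the 30 samples, which cannot give a p below 0.0333, the number of peaks had p = 0.0333 and an adjusted p of 0.333 over 10 measures, and the median fold had p = 0.133 and an adjusted p of 0.667. Neither passed 0.05 after adjustment. Since the thresholds differed between samples and set how many peaks were kept, the peak number and the fold cannot be told apart from the thresholds. The 7 samples at the same thresholds are a subset of the 30, so Zfp457 necessarily had the most peaks and the lowest median fold there too. The smallest possible exact permutation p among the 7 was 0.143. Counting only peaks with a score over 100 in every sample, Gm13235 had 1111 and Zfp457 was next with 1080.

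The fold enrichment of the peaks ran from 10, the threshold itself, to 22.51. The quartiles were 10.85 and 13.71. Under a fold of 11, within 1 unit of the threshold, lay 518 peaks (28.6%), and 937 (51.7%) lay under 12. Peaks above a fold of 20 numbered 12 (0.662%), and the same 12 also had a score above 100, the strict settings of the study. The score is 10 times the negative log10 of the peak caller's p-value. It ran from 59.18 to 774.45 with a median of 107.78, and 732 peaks (40.4%) had a score of 100 or less. The other 1080 (59.6%) had deposited values above the p threshold of 1e-10 at a fold of at least 10, so the deposited values do not show few peaks at that intermediate setting. A peak held between 10 and 360 tags, the sequenced reads counted within it, with a median of 23 and 45547 in all peaks together. The called width before scaling to 200 bp ran from 68 to 1767 bp with a median of 260.5 bp.

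Many fold values were not spread evenly. Within 0.011, 737 of the 1812 values (40.7%) were whole multiples of 1.25, from 8 to 18 times that step, where an even spread would place 1.76% there. These peaks had a median of 21 tags against 25 in the rest. They appear as horizontal rows in the plot of score against fold.

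**Figure D1:**
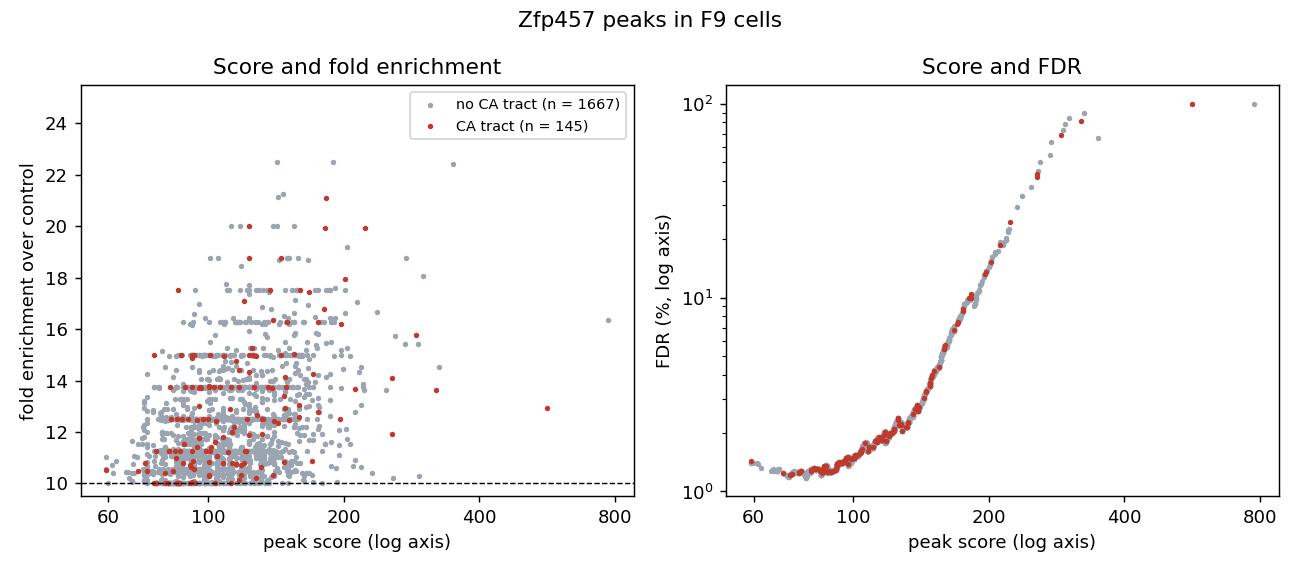
Each point is 1 of the 1812 Zfp457 peaks, with the score on a log axis against fold enrichment over the control (left, the dashed line marking the threshold of 10) and against the false discovery rate in percent on a log axis (right). Peaks with a CA tract (145, red) run through the whole range of scores, most peaks lie between a fold of 10 and 14, and the false discovery rate rises with the score up to 100%.

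The peaks with the highest scores carried the highest false discovery rates. The peak caller estimates this rate by exchanging ChIP and control and counting how many control peaks reach the same score. In the 732 peaks with a score of 100 or less the rate had a median of 1.31% and did not exceed 1.51%. In the 1040 peaks between 100 and 200 the median was 2.1% and the highest 14.29%. In the 40 peaks above 200 it ran from 14.78% to 100% with a median of 22.4%, and none was at 5% or less. Across the 1812 peaks the score and the rate had a Pearson r of 0.786 and a Spearman rho of 0.985, a description over peaks of 1 library that share the same control. A rate above 50% was given for 11 peaks, and the 10 with the highest score had rates of 63.16% to 100%. The Slit1 peak, with the third highest fold, was among these 10.

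Of the 10 peaks with the highest score, 5 lay in introns and 5 between genes, 5 were in sequence present more than once, 4 held a CA tract or an alternating run, and 4 were also called in another of the 30 samples. The highest lay at chr13:74667434-74667633, 47143 bp from the nearest transcript start, that of Zfp825, and had 360 tags, a score of 774.45, a fold of 16.35 and a false discovery rate of 100%. It was called as a region of 1767 bp, the widest in the set. The next, at chr6:136951445-136951644 and 43763 bp from the start of Pde6h, had 199 tags, a score of 565.03 and a fold of 12.95. Both were tandem repeats, and the remaining high scores were less extreme.

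In the Slit1 intron, Slit1 encoding a secreted axon guidance ligand, the peak had 50 tags, a score of 349.91 and a fold of 22.43. The peak at chr14:7469738-7469937, also a tandem repeat, lay 14906 bp from the start of Gm3460 and had 160 tags, a score of 325.99 and a fold of 14.53. In the Atl2 intron, Atl2 encoding an atlastin GTPase of the endoplasmic reticulum, the peak had 62 tags, a score of 320.37 and a fold of 13.62. The median 24-base word in that window occurred 2300 times in the genome, the most repeated of the 10. In the intron of the cAMP phosphodiesterase gene Pde4d the peak had 52 tags, a score of 300.51 and a fold of 18.08.

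The peak in Pde4d and the other 4 of the 10 were in sequence with a median copy number of 1. The peak at chr15:83090774-83090973, 8670 bp from the start of the glycosyltransferase gene A4galt, had 83 tags, a score of 294.41 and a fold of 10.29. The peak in Plekha5, at chr6:140402642-140402841, had 57 tags, a score of 292.43 and a fold of 15.43. In Inpp4b, which encodes a phosphoinositide phosphatase, the peak had 62 tags, a score of 289.16 and a fold of 15.76. The last, at chr3:70066142-70066341, was rich in short units such as ACACAG and had 51 tags, a score of 274.81 and a fold of 18.76. All 10 summits were more than 1 kb away from any transcript start.

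The 5 peaks with the highest fold outside these 10, a choice that leaves out the Slit1 peak with its fold of 22.43, 50 tags and median of 60 copies, had 22 to 33 tags, false discovery rates of 2.87% to 10.65% and a median copy number of 1. The peaks at chr6:35286659-35286858 and chr14:94687748-94687947 shared the highest fold, 22.51, with scores of 142.02 and 188.81. The peak in Sh3bp2, a gene for a signalling adaptor, had a fold of 21.26. The peak in Cntnap2, a gene for a neuronal adhesion protein, had a fold of 21.13. Of these 5 peaks 1 held a CA tract.

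Tracts of CA or TG dinucleotides were more frequent at Zfp457 peaks than around them. A CA tract is taken here as 6 or more CA units, or TG units on the same strand, in a row within the 200 bp; this measure and that of alternating runs were chosen after the sequences had been seen, so they are given with no test. A CA tract was present in 145 of 1812 peaks (8.0%, 95% Wilson interval 6.84 to 9.34%). It was present in 3.86% (3.28 to 4.54%) of the 3624 windows of equal length centred 500 bp to either side of the same summits, and in 3.01% (2.81 to 3.23%) of 25599 windows placed every 100 kb along the genome. The intervals cover counting error over peaks only. With 10 or more units the shares were 5.35% in the peaks, 2.37% in the flanks and 1.95% in the spaced windows.

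Of the 30 samples Zfp457 had the highest share of peaks with a CA tract. The others ranged from 0% in Gm13139 and Rex2 to 6.76% in Gm13145, with a mean of 2.91%. The intervals of 11 of the other 29 samples, each with 444 peaks or fewer, overlapped that of Zfp457, and those of 18 lay below it. Among the 6 samples at the same thresholds the share ran from 2.80% in Zkscan17 to 5.31% in Zfp709, and Gm13235, with nearly as many peaks as Zfp457, had 5.03% (4.11 to 6.14%). Of these 6 the intervals of Zfp458, Zfp600 and Zfp933 overlapped that of Zfp457 and those of Gm13235, Zfp709 and Zkscan17 lay below it. The share was 7.51% in Zfp457 peaks with a score of 100 or less and 7.88% between 100 and 200, and 8 of the 40 peaks above 200 held a tract (20.0%, 10.5 to 34.8%). In the peaks called in no other of the 30 samples it was 8.43% (7.05 to 10.0%). In peaks with a median copy number of 1 it was 6.37%.

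**Figure D2:**
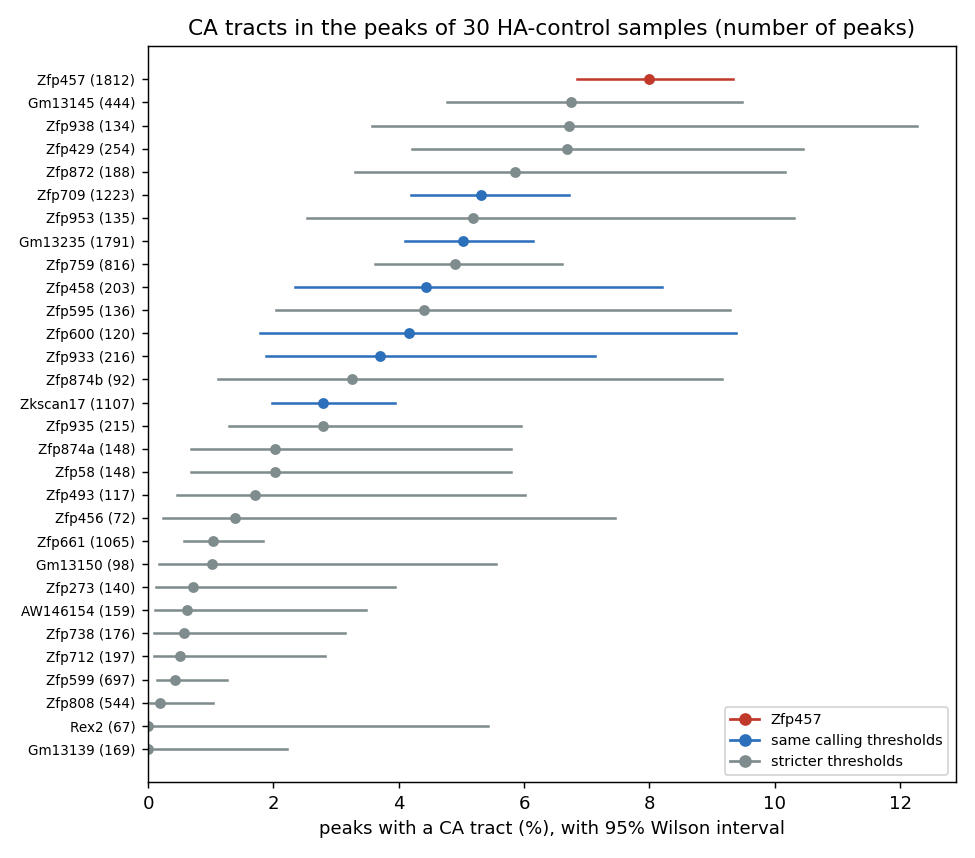
Share of peaks with a CA tract in each of the 30 HA-control samples, in percent, with points for the share and lines for the 95% Wilson interval over peaks; the number of peaks follows each name. Zfp457 (red) is highest at 8.0%, the 6 samples called at the same thresholds (blue) lie between 2.80% and 5.31%, and the intervals of the small samples are wide.

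The CA tracts sat at the summits. The central 200 bp of the Zfp457 peaks had 1.78% of their bases inside a CA tract, against 0.607% between 500 and 1000 bp away, a ratio of 2.94. The highest 50-bp bin, just upstream of the summit on the plus strand, reached 2.17%. In Gm13235 the same ratio was 1.52, and in the pooled peaks of the other 29 samples it was 1.10.

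**Figure D3:**
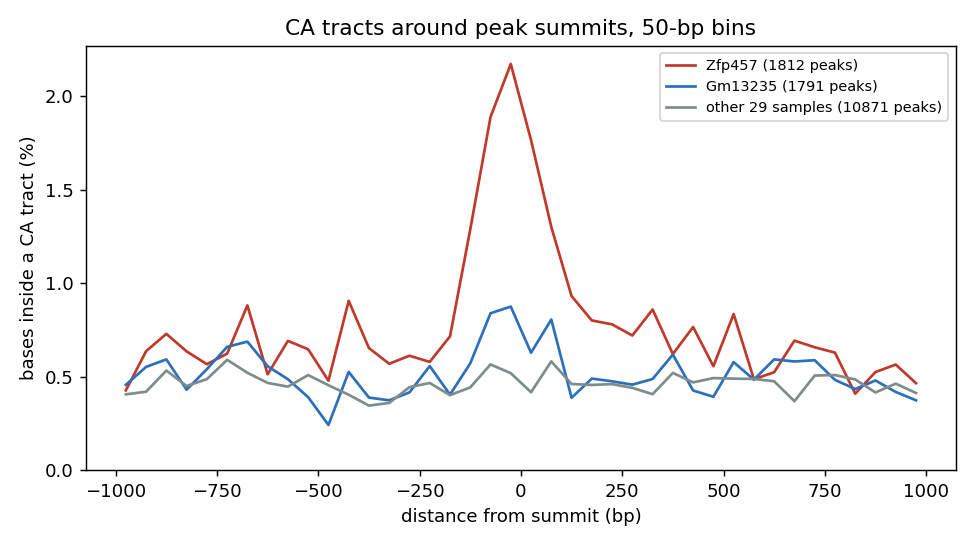
Percent of bases inside a CA tract in 50-bp bins from 1000 bp before to 1000 bp after the summit, for the peaks of Zfp457 (red), of Gm13235 (blue) and of the other 29 samples pooled (grey, Gm13235 included). The Zfp457 line rises to 2.17% at the summit from 0.409 to 0.882% beyond 500 bp, the Gm13235 line reaches 0.875%, and the pooled line stays at or below 0.591% throughout.

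Alternation of purine and pyrimidine extended beyond pure CA tracts. A run of 14 or more alternating bases was found in 285 Zfp457 peaks (15.7%, 14.1 to 17.5%), in 7.15% (6.35 to 8.03%) of the flanking windows and in 6.35% (6.06 to 6.65%) of the spaced windows. This share was again the highest of the 30 samples, the others running from 0% in Rex2 to 13.1% in Gm13145 with a mean of 5.91%. Next to Gm13145, with 444 peaks, came Zfp595 with 12.5% of 136 peaks. Among the 6 samples at the same thresholds it ran from 5.0% in Zfp600 to 10.2% in Zfp933. Intervals are not given for each sample here, so overlap with that of Zfp457 was not examined. Of the 1667 Zfp457 peaks without a CA tract 142 held such a run (8.52%, 7.27 to 9.96%), against 3.50% (2.94 to 4.17%) of the flanks without one. Uninterrupted AT repeats of 5 or more units were in 1.88% (1.35 to 2.61%) of the peaks and in 0.497% (0.314 to 0.784%) of the flanks.

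Runs of a single kind of base class differed less from the surroundings. A stretch of 20 purines or 20 pyrimidines was in 8.17% (6.99 to 9.52%) of the Zfp457 peaks, 5.52% of the flanks and 8.55% of the peaks of the other 29 samples. Repeats of 6 or more GA or TC units were in 2.10% (1.53 to 2.87%) of the peaks and 1.21% of the flanks, and runs of 10 A or T in 4.75% (3.86 to 5.82%) and 4.11%. How repeated sequence affects the placing of reads in the ChIP and its controls was not tested.

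None of the 5 leading 8-base words was in more than 3.98% of the peaks in which it was read. Shares of words lower in the ranking are not given. Words were ranked by their excess over the flanking windows in the 889 peaks of median copy number 1 on odd-numbered chromosomes and X, and their shares were read in the 729 on even-numbered chromosomes; each word was counted together with its reverse complement. The leading word, ATATGTGC, was in 2.59% of the peaks used for ranking. On the even-numbered chromosomes it was in 1.65% (0.944 to 2.86%) against 0.960% of the flanks and, over all chromosomes, 0.930% of the spaced windows. The second, AGCTGAAT, was in none of the 729 peaks, with an upper Wilson bound of 0.524%, and ATTAGCTC and ACCTATGG were in 0.549% and 0.137%. Among the 5 leading words only ATATATAT, itself an alternating run, had a share on the even-numbered chromosomes whose interval lay above both backgrounds, 3.98% (2.78 to 5.65%) against 1.23% of the flanks and 1.90% of the spaced windows.

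The Zfp457 peaks were less often in multi-copy sequence than the genome at large. A peak was called multi-copy where the median 24-base word in its window occurred at least 2 times in the genome, counting both strands. Only exact matches counted, so copies that differ in sequence can pass as single-copy. This held for 194 peaks (10.7%, 9.36 to 12.2%), against 19.05% (18.6 to 19.5%) of the spaced windows. In 78 peaks (4.30%) the median word occurred 10 times or more, against 12.9% of the spaced windows. Among the 30 samples the multi-copy share ranged from 5.03% in AW146154 to 81.4% in Zfp808, and Zfp457 was 21st from the highest (exact permutation p = 0.5, adjusted p = 0.667). The other samples at the same thresholds ran from 9.26% in Zfp933 to 32.5% in Zfp600, with 9.66% in Gm13235. The share was 10.7% in peaks with a score of 100 or less and 10.2% between 100 and 200, while 10 of the 40 peaks above 200 were multi-copy (25%, 14.2 to 40.2%). Reads that fitted several places equally well had been put at one of them pseudo-randomly, so peaks in identical copies were measured with less certainty of position.

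Base composition was close to that of the surroundings. The median GC content of the 200 bp was 43.5%, against 43.0% in the flanks and 41.5% in the spaced windows, and 45.0% in the central 100 bp. The median ratio of observed to expected CpG was 0.137, against 0.155 in the flanks and 0.147 in the spaced windows. Among the 30 samples Zfp457 was 25th from the highest in both, the GC medians running from 35.0% in Zfp808 to 55.0% in Zfp429 (exact permutation p = 0.433 for GC and 0.333 for CpG, adjusted p = 0.667 for both). The median called width was 20th (exact permutation p = 0.533) and the median score 26th (exact permutation p = 0.267), each with an adjusted p of 0.667.

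Zfp457 peaks lay at transcript starts about as often as the spaced windows, with overlapping intervals. Within 1 kb of a start lay 64 of 1812 summits (3.53%, 2.78 to 4.48%), against 4.18% (3.95 to 4.44%) of the spaced windows. The other 29 samples ran from 1.49% in Rex2 to 48.6% in Zfp456 with a mean of 10.5%, and Zfp457 was 26th from the highest (exact permutation p = 0.333, adjusted p = 0.667). Among the 7 samples at the same thresholds it was the lowest, the others lying between 3.94 and 6.94%. None of the 40 peaks with a score above 200 lay within 1 kb of a start, which allows a share of up to 8.76% by the Wilson interval. By the annotation at the summit, 818 peaks (45.1%, 42.9 to 47.4%) were intronic, 940 (51.9%) intergenic, 17 (0.938%) in coding exons, 27 (1.49%) in UTRs and 10 (0.552%) in other exons. In the spaced windows 37.9% were intronic and 58.7% intergenic, so introns held more of the peaks than of the genome, beyond the counting error.

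The 10 highest-scoring peaks within 1 kb of a protein-coding start had scores of 133.66 to 182.71 and 25 to 37 tags, and 9 of them lay in introns. Values follow for some of them. The peak near Foxk2, a forkhead transcription factor gene, lay 899 bp from a start with 37 tags, a score of 181.95 and a fold of 11.55. Near Adc the values were 30 tags, a score of 166.19 and a fold of 16.92 at 917 bp. Near Palld, whose product organises actin, they were 37 tags, a score of 152.47 and a fold of 10.43. Near Spic, an ETS-family transcription factor gene, the summit lay 87 bp from a start, the closest of the 10, with 29 tags and a fold of 11.33.

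Others were near 1810013D10Rik, Sp1, Gpr45, Arl9 and Arhgap28. The Sp1 peak, at a gene for a zinc finger activator of GC-rich promoters, lay 228 bp from a start with 29 tags and a fold of 10.78, and was also called for Zfp709 and Zfp935. The Arl9 peak, at a gene of the ARF-like GTPase family, held an alternating run of 44 bases, was in sequence with a median of 7 copies and had a fold of 10.01. The fold of these 10 peaks ran from 10.01 to 21.11, and 3 of them were called in another of the 30 samples.

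Few genes of the lists examined had a Zfp457 summit within 10 kb of a transcript start. Over all 37273 annotated genes the share was 2.01%, and over the 22367 protein-coding genes it was 2.35%. Of 29 genes of the pluripotency network 1 had such a summit, of 34 germline genes 1, and of 52 ribosomal protein genes 2. There was none among 35 genes of KAP1 and the heterochromatin machinery, 40 imprinted genes, 80 developmental transcription factors or 21 zinc finger genes of chromosome 13. With lists of this size the 95% Wilson intervals reached from 0 to 4.58% for the developmental factors and from 0.611 to 17.2% for the pluripotency network, so none of the lists could be set apart from the 2.35% of protein-coding genes at this size.

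The pluripotency gene was Tdgf1, which encodes the Nodal coreceptor Cripto. Its peak, at chr9:110845244-110845443 within an intron and 3318 bp from a start, had 26 tags, a score of 123.17 and a fold of 13.76 and was called in 1 other sample. The germline gene was Rec8, a meiotic cohesin subunit, with a peak of 28 tags and a fold of 11.57 at 6468 bp. The ribosomal protein genes were Rps7, with 17 tags, a fold of 10.57 and the lowest score of the set, 59.18, and Rps20, with 29 tags and a fold of 10.96. None of these 4 exceeded a fold of 14.

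Zfp457 peaks did not lie near the gene of the protein itself. The nearest summit to Zfp457 was 242691 bp from the gene, in a peak with 21 tags, a score of 85.8 and a fold of 10.3. Summits were spread over all the autosomes and X, at 0.683 per Mb of genome. Chromosome X had 44 peaks, 0.264 per Mb, while the autosomes ran from 0.522 on chromosome 6 to 0.878 on chromosome 5. X held 2.43% of the Zfp457 peaks and 3.94% of the peaks of the other 29 samples. The gene with the most summits between its ends was Wwox, a long oxidoreductase gene of 913 kb, with 4. After it 7 genes had 3 each, namely Cdkal1, Fam172a, Gm20388, Hecw2, Pde4d, Ptprd and Sbf2, of which Sbf2 was the shortest at 307 kb.

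Peaks rarely neighboured each other. Only 44 (2.43%, 1.81 to 3.24%) lay within 10 kb of another Zfp457 peak, in 22 pairs and no larger group. The pair with the highest score, 272.91, was in Lrrc8d at chr5:106178372-106181861. Among the 30 samples this share ran from 0 to 22.0%, the latter in Zfp429, and that of Zfp457 was near the mean of the others, 2.32% (exact permutation p = 0.933, adjusted p = 1).

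About 1 in 4 Zfp457 peaks was also called in another of the HA-control samples. Requiring 25% of the 200 bp to overlap, 483 peaks (26.7%, 24.7 to 28.7%) were shared with at least 1 of the other 29. For comparison, 21% of the peaks of those 29 were shared with another of the 29. The per-sample shares of the 29 were counted against every other sample of the 30, Zfp457 included. They ran from 0.629% in AW146154 to 65.2% in Zfp953 with a mean of 26.6% (exact permutation p = 1 for Zfp457, adjusted p = 1). Of the Zfp457 peaks 1329 were called in no other of these samples, 314 in 1, 99 in 2, 38 in 3 and 12 in 4. Called in 5 or more others were 11 in 5, 4 in 6, 4 in 7 and 1 in 8.

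Peaks called in more samples had higher median scores and folds. From those called in no other sample through those called in 1, in 2 and in 3 or more, the median score rose from 104.41 through 111.76 and 117.28 to 128.75. The median fold was 11.73, 11.86, 12.51 and 12.81 in the same order. The median GC content was 42.5, 45.0, 46.0 and 48.2%. Of the 70 peaks shared with 3 or more samples 12 held a stretch of 20 purines or pyrimidines (17.1%, 10.1 to 27.6%), against 8.05% (6.71 to 9.64%) of the peaks not shared. Over all 483 shared peaks the share with such a stretch was 8.49% (6.32 to 11.3%). A CA tract was in 10.0% (4.93 to 19.2%) of the peaks shared with 3 or more samples, 6.83% (4.91 to 9.44%) of all shared peaks and 8.43% of those not shared, with overlapping intervals. These are descriptions over peaks of 1 library.

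Sharing was mostly within the samples that had the same controls. The 18 FLAG-tagged F9 samples held 20728 peaks, and 153 Zfp457 peaks (8.44%, 7.25 to 9.81%) met one of them. The 10 F9 samples called against another HA-tagged ChIP held 10478 peaks and met 14 (0.773%, 0.461 to 1.29%). The 9 ES cell samples held 9122 peaks and met 2 (0.110%, 0.0303 to 0.402%). The HA-control samples, with 10871 peaks, met 483. Seen from the other side, 7.26% of the HA-control peaks, 0.830% of the FLAG peaks, 0.143% of the peaks called against the other ChIP and 0.0219% of the ES peaks met a Zfp457 peak. The sets differ in cell line, tag, antibody, control, alignment, calling thresholds and proteins together, and these cannot be told apart.

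Gm13235, the sample closest in size and thresholds, shared the most. It met 218 Zfp457 peaks, 12.03% (10.6 to 13.6%) of those of Zfp457 and 12.2% (10.7 to 13.8%) of its own. Zfp709 followed with 115, which were 6.35% of the Zfp457 peaks and 9.40% of its own, then Zfp759 with 96 (5.30 and 11.8%), Gm13145 with 93 (5.13 and 20.9%) and Zfp872 with 47 (2.59 and 25%). Zkscan17, at the same thresholds and with 1107 peaks, shared 28 (1.55 and 2.53%). The median score of Zkscan17, 58.83, was the lowest of the 30 samples, and its median called width was 154 bp. Whether the sharing followed the number of peaks was not tested. Zkscan17 carried its tag at the N-terminus, and Zfp457 and the other samples just named at the C-terminus. Of the remaining N-terminal samples, Zfp661 shared 1 of 1065 peaks, Zfp599 1 of 697 and Zfp600 2 of 120. AW146154, Gm13139 and Rex2 shared none. Some C-terminal samples also shared none, namely Zfp808, with 544 peaks, Gm13150, Zfp273, Zfp456, Zfp58 and Zfp738. Whether the sharing followed the tag end was not tested.

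**Figure D4:**
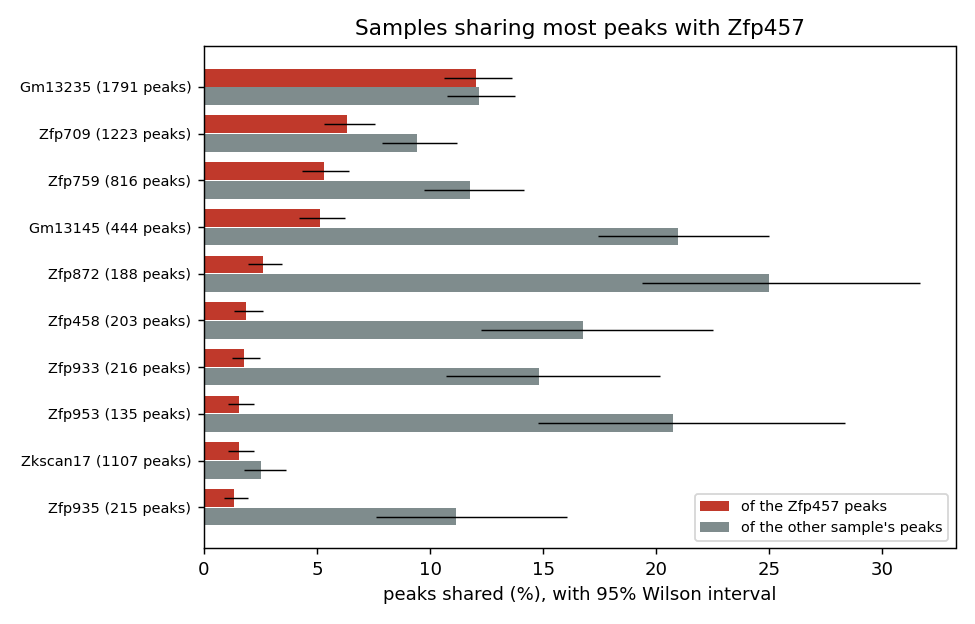
The 10 samples that shared the most peaks with Zfp457, with the share of the Zfp457 peaks (red) and of the other sample's own peaks (grey) in percent and bars for the 95% Wilson interval over peaks. Gm13235 takes 12.03% of the Zfp457 peaks, and Zfp872 shares 25% of its own 188 peaks but 2.59% of those of Zfp457.

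At the 218 peaks shared by Zfp457 and Gm13235 the summits lay close together. The median distance between them was 28 bp, 61 were within 10 bp and 157 within 50 bp. The median score was 112.09 for Zfp457 and 115.245 for Gm13235, and the median fold 12.43 and 12.715. Tags had medians of 24 and 29, with a Pearson r of 0.847 and a Spearman rho of 0.492 over the shared peaks, and for the score these were 0.551 and 0.360. Both samples share the same input and control, and each r is a description over peaks. Of the 218 peaks 102 (46.8%) were called in a further HA-control sample, and 116 in none.

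The 5 shared peaks with the highest Zfp457 score showed both like and unlike strengths. On chromosome 6 at 136951445-136951644 Zfp457 had 199 tags and a score of 565.03, and Gm13235 178 tags and a score of 286.42, with summits 3 bp apart. In Slit1 each had 50 tags, with folds of 22.43 and 27.34. In Atl2 Zfp457 had 62 tags and a score of 320.37, and Gm13235 24 tags and a score of 91.33. In Lrrc8d, a subunit gene of the volume-regulated anion channel, the tags were 49 and 41 and the folds 15.43 and 18.07. Near Dab1, a Reelin signalling adaptor gene, the peak at chr4:103280091-103280290 had 38 and 52 tags and folds of 19.94 and 24.83. Gm13235 was thus higher in fold at 3 of these 5 peaks.

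The 4 peaks met by 7 other samples ranged widely in strength. In Slit1 the score was 349.91, and in Lrrc8d it was 272.91. The peak at chr2:71492746-71492945 had 32 tags, a score of 132.67, a fold of 10.97 and an alternating run of 25 bases. The peak in Lrp1, a gene for a lipoprotein receptor, had 21 tags, a score of 86.2 and a fold of 10.01. The folds of the last 2 stood within 1 unit of the threshold.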

How the data were processed

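Chromatin of crosslinked F9 EC cells was immunoprecipitated and sequenced, once per protein. Per the labels and the study's methods, the authors mapped reads to mm9 with Bowtie, placed reads with several equally good positions pseudo-randomly, called peaks per sample with MACS 1.4.2 against input and an HA control ChIP, kept peaks called against both, and set each to 200 bp around its summit. The deposited table gives for each peak the tag count, the score (10 times the negative log10 of the p-value), the fold enrichment (a ratio) and the false discovery rate in percent, all the authors' values. Library depth is unknown here; the sum of tags in peaks is not depth, and the Wilson intervals cover counting error only. Of 53255 rows, 244 under 1 name that matches no label were not used, and 1 of the 31 labelled HA-control samples had no rows under its name and was not analysed here.

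Sequence and annotation came from NCBIM37 (the assembly of mm9) and gencode vM1. Copy number was the median count of 24-base words over both strands. Zfp457 was compared with the other 29 samples by a two-sided exact permutation test of its value minus their mean, with Benjamini-Hochberg adjustment over 10 measures. Peaks were named by rule: the 10 highest scores, the 5 next highest folds, the 10 highest scores within 1 kb of a protein-coding start, the 5 called in the most samples, the 5 highest scores shared with Gm13235, the genes with the most summits, and listed genes with a summit within 10 kb of a start. The peaks, lists and measures were chosen with earlier results of these data known. Alternatives varied distances, overlaps, thresholds and the samples compared. Scripts used Python 3.11.15, numpy 2.4.6 and pandas 2.3.3 and were tested on simulated data. A few items that the naming rule selects are not reported here.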

Additional observations from a re-analysis of the deposited data

How the results depend on the processing

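Each KRAB-ZFP had 1 sample, so the limits lie in the thresholds and definitions, and depth is unknown. Within the 7 samples at the same thresholds no test could pass 0.05, so those comparisons say nothing of stability. Of 63 alternative values 41 kept their direction and side of the threshold or stayed within the counting interval. These 41 include comparisons within the same thresholds and others whose p was above 0.05 from the start. The count is therefore no measure of stability. The multi-copy share was 4.30% with a minimum of 10 copies. The share near transcript starts was 19.7% within 5 kb and 1.82% with protein-coding transcripts. The share of peaks shared with another HA sample was 20.3% without Gm13235, and that shared with Gm13235 was 9.54% with a score over 100 in both samples. The share near another own peak was 0.883% within 5 kb, and the median GC content was 45.0% in the central 100 bp and 44.0% with a score over 100. Among alternatives chosen after seeing the data, the CA tract share was 5.35% with 10 or more units, 5.57% in the central 100 bp and 6.37% in single-copy peaks, and the alternating run share was 10.9% with 20 or more bases and 8.52% without CA tracts.

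The difference of Zfp457 from the mean of the others changed with the samples compared. For the number of peaks it was 1035 within the same thresholds (exact permutation p = 0.143, the smallest possible) and 791 with a score over 100 (exact permutation p = 0.0667), where Gm13235 had 1111 peaks and Zfp457 1080. Within the same thresholds the sign turned for the median score (17.8), the median called width (38.6 bp), the median GC content (0.333 points), the share near another own peak (-0.261 points) and the share shared with another sample (-1.41 points). The sign also turned for the share near another own peak with a score over 100 (-0.430 points) and for the share shared with another sample among C-3XHA samples only (-3.90 points). With a score over 100 Zfp457 stayed highest in CA tract and alternating run shares. In the subsets of samples that place was fixed beforehand by its place among the 30. No paired analysis was possible because each group has 1 sample.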
